A study of Mus musculus with 6 samples.

Results

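The 3 diploid control cultures of this series were compared with each other: diploid replicate 1 was set against diploid replicates 2 and 3. The cultures were chosen by their sample titles and are 3 of the 6 arrays of the series. Setting replicate 1 apart was proposed with earlier results of these data known. Its larger distance from the other cultures is therefore no independent support for the split. The other 3 arrays, of haploid lines, were not compared and entered only the choice of 1 probe set per gene. All 3 diploid cultures were male mouse embryonic stem (ES) cells, pluripotent cells from the early embryo, with no genetic change named in the labels. Replicates 1 and 2 carry the strain label 129Sv and replicate 3 the label 129. All 3 were grown in 2i medium, and RNA was taken on day 2 after passaging and hybridised to 1 Affymetrix mouse GeneChip array per culture. The labels call the cultures biological replicates. Passage numbers of the diploid cultures, whether they came from separate lines, and any use of feeder cells are not stated in the labels.

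The 2i medium holds an inhibitor of the kinase MEK, which silences the ERK pathway, and an inhibitor of GSK3, which stabilises beta-catenin. Together they hold ES cells in the naive state, in which the factors Pou5f1, Sox2 and Nanog are joined by Klf2, Klf4, Esrrb, Tfcp2l1 and others. ES cell cultures are known to gain whole chromosomes during passaging, and such cells can take over a culture. A gained chromosome raises the RNA of many of its genes together, although arrays measure RNA and not DNA.

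Values are the deposited log2 values per probe set. For each gene the difference is the value of replicate 1 minus the mean of replicates 2 and 3, and the gap is the distance between replicates 2 and 3. A gene is counted as higher or lower where the difference is at least 1 on the log2 scale, which is 2-fold, and larger than the gap. With 1 array on one side there is no estimate of its spread, so no test was made and no p-value is given. Of 18193 genes, 93 (0.511%) were higher and 129 (0.709%) were lower in replicate 1. All 222 genes (1.22%) that reached 2-fold also exceeded the gap, and 172 of them were at least 3 times the gap. Between replicates 2 and 3 only 18 genes (0.0989%) differed by 2-fold, and the largest gap was 1.36, for Zfp946. Replicate 1 differed by 2-fold from replicate 2 in 270 genes (1.48%) and from replicate 3 in 223 genes (1.23%). The size of the difference had a median of 0.16 over all genes, against a median gap of 0.12, and a 99th percentile of 1.06 against 0.66. At 2-fold, most genes were close in all 3 cultures, and a small set of genes set replicate 1 apart. Smaller differences were more common: at 1.5-fold and larger than the gap, 545 genes were higher and 495 lower.

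**Figure D1:**
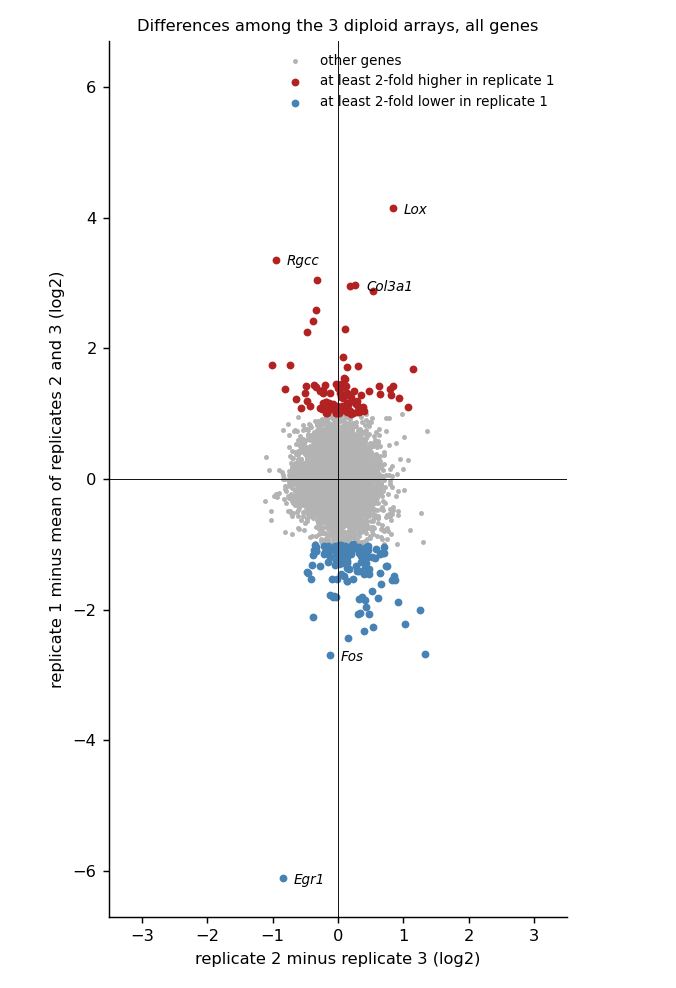
Each point is 1 of 18193 genes. The horizontal axis is replicate 2 minus replicate 3 and the vertical axis is replicate 1 minus the mean of replicates 2 and 3, both in log2 units at the same scale. The points spread further along the vertical axis, from -6.11 for Egr1 to 4.15 for Lox, than along the horizontal axis, where no gene passed 1.36.

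Facts that touch all results are few. The arrays' medians lay between 6.31 and 6.32, and the correlation across genes was 0.9906 and 0.9913 for replicate 1 with the others and 0.9964 for replicates 2 and 3. For the actin control, a sign of RNA integrity, the 3' probe set exceeded the 5' probe set by 0.46 in replicate 1, 0.38 in replicate 2 and 0.34 in replicate 3. For Gapdh the same quantity was -0.01, -0.06 and -0.09. Its part in the results was not tested. ES cell identity was clear in all 3 cultures: Pou5f1 stood at 13.55, 13.50 and 13.53, Sox2 at 13.17, 13.14 and 12.93, and Zfp42, also called Rex1, at 13.26, 13.46 and 13.46 in replicates 1, 2 and 3. In bulk RNA of this kind, a larger share of cells that express a gene and more of its RNA per cell cannot be told apart.

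Genes of chromosome 6 were higher in replicate 1 along the whole chromosome. Among genes whose mean lay above the median level, 428 were on chromosome 6, and their median difference against all autosomal genes was 0.38 (log2), or 1.30-fold. The median was 0.40 against replicate 2 alone and 0.38 against replicate 3 alone, while it was -0.01 between replicates 2 and 3. Of these genes 90.2% were higher in replicate 1 than the mean of the other cultures. On the 18 other autosomes together this share was 52.3%, and it lay between 46.1% and 60.6% on each of them. Replicate 2 was above replicate 3 in 43.9% of the chromosome 6 genes. The median shift of the other autosomes lay between -0.05 and 0.04, and between replicates 2 and 3 no autosome was shifted by more than 0.02. For scale, 3 copies in place of 2 in every cell would be 0.58 (log2) if RNA followed copy number in full.

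**Figure D2:**
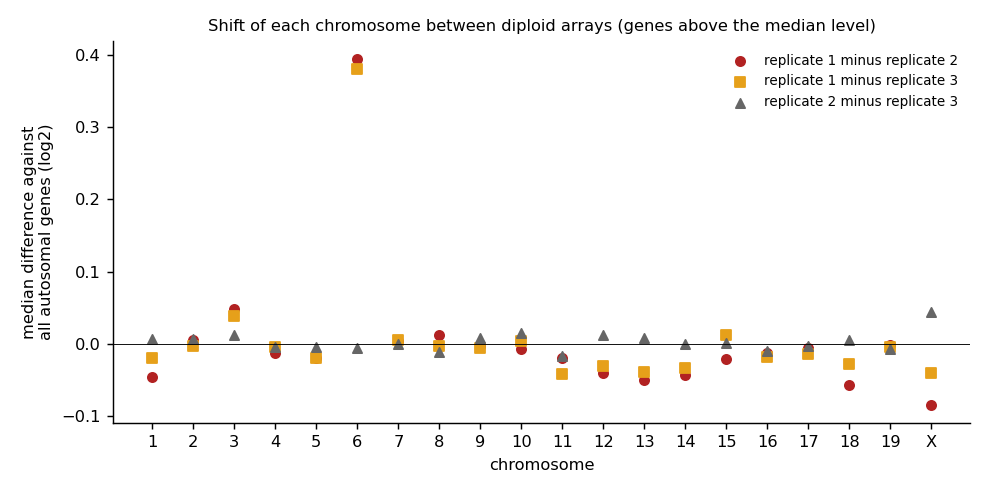
For each chromosome, the median log2 difference of its genes between pairs of diploid arrays, relative to all autosomal genes, over genes above the median level. Chromosome 6 stands at 0.40 and 0.38 in the comparisons with replicate 1 and at -0.01 between replicates 2 and 3, while the other autosomes lie close to 0.

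The shift ran along the length of the chromosome. The 428 genes were cut into 8 windows of neighbouring genes, 50 in each and 78 in the last, and the median shift of the windows ran from 0.29 to 0.51. In each window between 82.0% and 96.0% of the genes were higher in replicate 1. Between replicates 2 and 3 the same windows lay between -0.06 and 0.02. Elsewhere in the genome 164 windows gave shifts from -0.15 to 0.21, and none reached the lowest window of chromosome 6. The highest of them were neighbours, the sixth and seventh of 8 windows on chromosome 3, at 0.21 and 0.18. In the higher of these, 84.0% of the 50 genes were above the other cultures, while chromosome 3 as a whole was shifted by 0.04. By level, the chromosome 6 shift was 0.27 in the 143 dimmest of the 428 genes, 0.45 in the next 142 and 0.38 in the 143 brightest. Over all its 992 genes, dim ones included, it was 0.15.

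**Figure D3:**
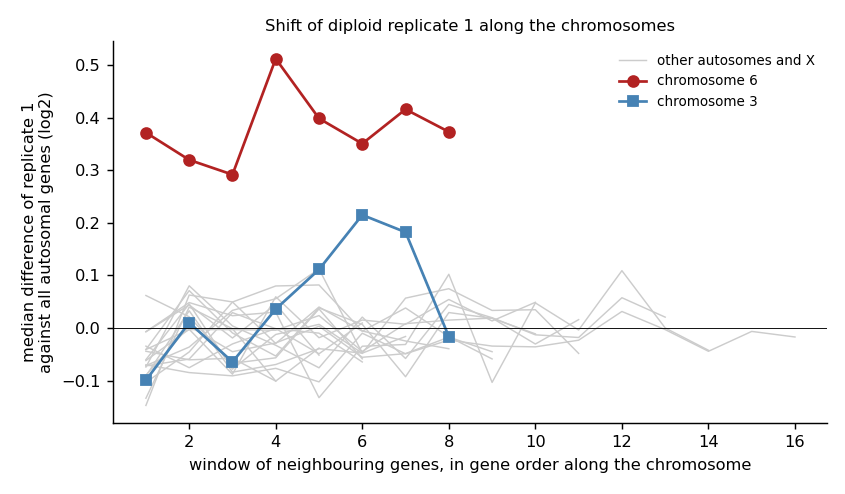
Median log2 difference of replicate 1 in windows of neighbouring genes, in gene order, relative to all autosomal genes. All 8 windows of chromosome 6 lie between 0.29 and 0.51; the 2 highest windows elsewhere, at 0.21 and 0.18, are on chromosome 3, and the grey lines show the other autosomes and X.

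Highly expressed genes of the chromosome show the size of the shift in single genes. Serbp1, an RNA-binding protein, stood at 14.53 in replicate 1 against 14.22 and 14.19, a difference of 0.33 with a gap of 0.02. Slc2a3, a glucose transporter, stood at 14.39 against 14.18 and 14.00, and the splicing factor Hnrnpf at 13.91 against 13.66 and 13.49. The actin-binding thymosin Tmsb10 differed by 0.17, with values of 15.09, 14.90 and 14.94. In each of these replicate 1 was the highest, by less than 2-fold. Of the 992 genes on chromosome 6, 19 (1.92%) were higher by 2-fold and 1 was lower, Prickle2, a planar polarity protein. Thus 20.4% of the 93 higher genes lay on a chromosome with 5.45% of all genes. The largest were Frmd4b, a scaffold protein, with 9.93 against 7.31 and 7.69, and the protease inhibitor A2m, with 9.95 against 8.36 and 8.06. Next came Mgp, an inhibitor of calcification (6.89 against 5.24 and 5.10), and the neuronal adhesion protein Cntnap2 (7.94 against 6.46 and 6.35). The actin-capping protein Capg stood at 10.27 against 8.79 and 8.82. With each chromosome's median subtracted, 5 chromosome 6 genes were still higher by 2-fold, and Frmd4b differed by 2.02, A2m by 1.33, Mgp by 1.32, Cntnap2 by 1.13 and Capg by 1.06. These genes thus lay further out than their chromosome. Other probe sets of Frmd4b gave as little as 0.07 and of Cntnap2 0.13.

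Replicate 1 had more RNA of the fibrillar collagens Col3a1 and Col5a2, of some collagen-associated proteins and of the matrix enzymes Lox and Mmp3. Fibrillar collagens form the fibres of connective tissue, small proteoglycans such as Bgn and Dcn coat them, and Lox cross-links them. Of 33 measured genes for fibrillar collagens and stromal matrix 7 were higher (21.2%, against 0.511% of all genes) and 1 was lower (against 0.709%), with a median difference of 0.23 against 0.03 over all genes. Of 36 measured matricellular proteins and matrix enzymes 3 were higher (8.33%) and 1 was lower (2.78%), with a median of 0.22. The basement membrane list, with laminins and type IV collagens, had a median of -0.03. In it 0 of 20 genes were past 2-fold in either direction, against 1.22% of all genes. At that share a list of 20 would hold few or none.

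Lox, the lysyl oxidase that cross-links collagen and elastin, stood at 9.86 in replicate 1 and at 6.13 and 5.29 in replicates 2 and 3. This was the largest increase of all genes, at 17.7-fold (log2 difference 4.15, gap 0.84). The fibrillar collagen Col3a1 stood at 8.00 against 5.17 and 4.90, a 7.83-fold difference. Mmp3, a protease that degrades matrix, stood at 8.17 against 5.31 and 5.13, or 7.73-fold higher. In all 3 genes replicate 1 lay above both others by several times the gap, which was 0.27 for Col3a1 and 0.19 for Mmp3 and, for Lox, above the 99th percentile of all gaps. The proteoglycan biglycan, Bgn, stood at 9.33 against 6.72 and 6.18 (7.34-fold). The adhesive glycoprotein thrombospondin, Thbs1, stood at 8.52 against 7.02 and 6.93 (2.92-fold). Col5a2, which sets the width of collagen fibres, stood at 8.25 against 6.89 and 6.80 (2.64-fold). The other fibrillar collagens were under 2-fold and went both ways: Col1a1 differed by -0.12, Col11a1 by -0.20, Col5a1 by 0.10 with a gap of 0.36, and Col1a2 by 0.95. Fbln2, on chromosome 6, periostin (Postn) and decorin (Dcn) were between 2.16-fold and 2.47-fold higher. Mgp, described with chromosome 6, was the other higher gene of the stromal list. Fbln2 differed by 0.90 with its chromosome's median subtracted. Against the direction of these genes, Efemp1, a fibulin-like glycoprotein, stood at 4.91 against 6.62 and 5.87, and Ccn1, an adhesive matricellular protein, at 7.37 against 8.82 and 8.30. Fibronectin, Fn1, stood at 12.30 against 12.86 and 12.63 and did not reach 2-fold.

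The probe sets of a gene did not always give the same size. The lowest difference among them was 0.14 for Lox, 0.75 for Col3a1, 1.54 for Bgn, 0.02 for Col5a2, 0.01 for Dcn and 0.21 for Fbln2, while Mmp3 and Postn had 1 probe set each. For Thbs1 the probe sets ran from 1.42 to 1.55. Of the receptors for matrix, 1 of 21 was higher (4.76%, against 0.511% of all genes), the hyaluronan receptor Cd44, at 6.18 in replicate 1. Its difference was 1.11, with a gap of 0.13 and a lowest probe set difference of -0.12. Of 37 actomyosin and contractile genes 1 was higher (2.70%, against 0.511% of all genes), the calcium-binding protein S100a6 (10.31 against 9.19 and 8.04). The median of that list was -0.06.

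**Figure D4:**
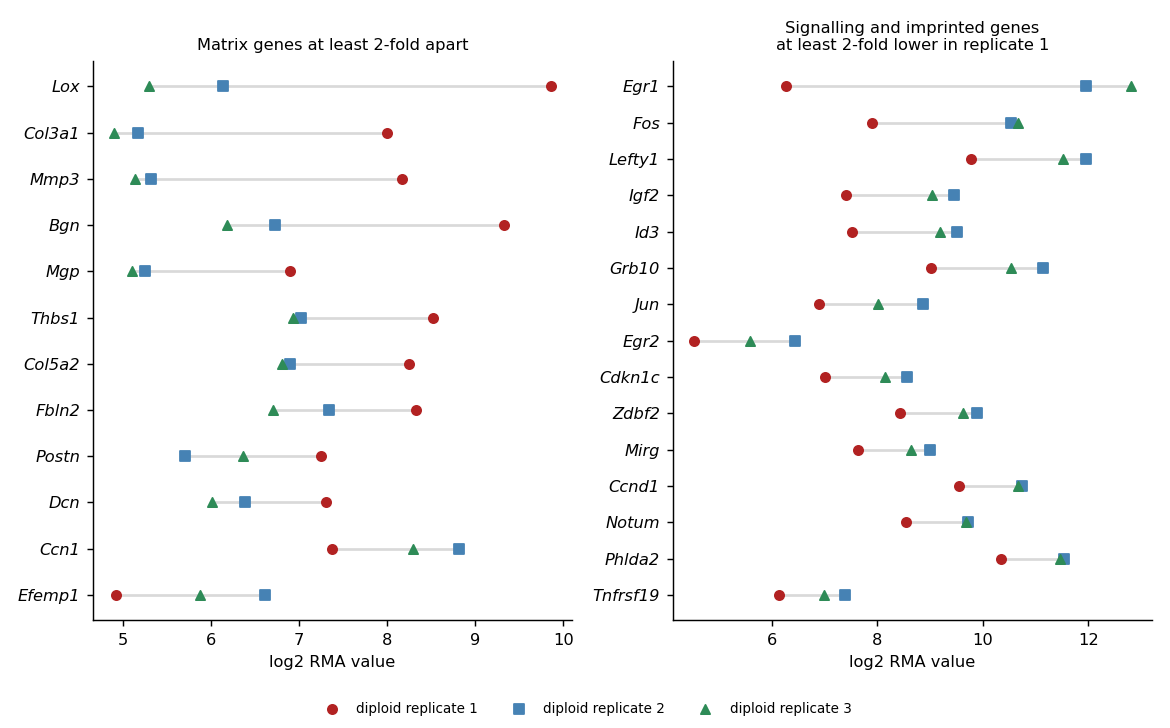
Log2 value in each of the 3 diploid arrays for all genes past 2-fold in both matrix lists (left) and for the lower genes of the signalling and imprinted lists (right); each grey line spans the 3 values. On the left replicate 1 is to the right of both others except for Ccn1 and Efemp1, and on the right it is to the left of both, by the most for Egr1.

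Promoters were looked at for the genes past 2-fold in the matrix, receptor and actomyosin lists, which were picked by these values and went in both directions. Of 14 such genes 9 had a promoter in the RefSeq table (GRCm38.p6). In the 250 bases before the start, TGANTCA, the site of AP-1 factors, on both strands, was present in 2 of the 9 (Mmp3, higher, and Efemp1, lower), against 7.82% of 27025 genes. CATTCC, the core site of TEAD factors, on both strands, was present in 2 of the 9 (Col3a1, higher, and Ccn1, lower), against 14.4%. The CArG box of the serum response factor was in 0 of the 9, against 1.62%. A match is a description of letters and not a shown binding site. The sequences are from the plus strand, chr9:7445572-7445821 for Mmp3 and chr1:45311288-45311537 for Col3a1, and capitals mark the TGANTCA match, which begins 46 bases before the start of Mmp3, and the CATTCC match.
Mmp3: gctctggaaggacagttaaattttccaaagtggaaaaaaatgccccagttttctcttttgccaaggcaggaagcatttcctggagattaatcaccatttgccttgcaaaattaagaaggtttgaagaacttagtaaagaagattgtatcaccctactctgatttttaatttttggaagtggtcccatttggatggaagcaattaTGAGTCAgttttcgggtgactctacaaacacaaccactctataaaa
Col3a1: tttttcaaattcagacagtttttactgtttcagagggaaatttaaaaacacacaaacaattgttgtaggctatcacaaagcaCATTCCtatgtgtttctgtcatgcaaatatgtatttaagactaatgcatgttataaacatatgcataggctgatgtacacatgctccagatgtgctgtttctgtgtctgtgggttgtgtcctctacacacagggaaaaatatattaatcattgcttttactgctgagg

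Markers of embryonic fibroblasts, a cell type often used as a feeder layer for ES cells, were higher in replicate 1 as a list. Many of them, Col3a1, Postn and Dcn included, are also in the stromal matrix list, so the lists are not separate observations. Of 25 measured markers 4 were higher by 2-fold (Col3a1, Postn, Dcn and S100a4), none was lower, and 20 were above both other cultures (80.0%, against 43.2% of all genes). The difference was positive and larger than the gap in 17 of the 25 (68.0%, against 33.9% of all genes) and negative and larger than the gap in 2. The mean log2 level of the list was 6.71 in replicate 1 and 6.22 and 6.21 in replicates 2 and 3, and the median difference was 0.36. Under 2-fold, the highest were Col1a2, on chromosome 6, at 9.34 against 8.41 and 8.38, Mfap5, on the same chromosome, with a difference of 0.90, Cdh11 (0.81), Lum (0.80) and Tnc (0.75), followed by Col6a1 (0.68), Loxl1 (0.58) and Fap (0.57). Other markers differed less or went the other way. The main collagen chain Col1a1 stood at 7.63 against 7.75 and 7.74, the surface protein Thy1 at 6.88 against 6.75 and 6.73, and the receptor Pdgfrb at 6.58 against 6.31 and 6.30. The mesenchymal factor Twist1 differed by 0.20, Prrx1 by -0.29 with a gap of 0.60, and the secreted glycoprotein Fstl1 by -0.77. The list holds 2 markers, Cdh11 and Fap, that were below 4.86 in all 3 cultures, a level set at the smallest lower quartile of the diploid arrays. Lum was below this level in replicates 2 and 3, at 3.91 and 4.32. The part of such cells in the matrix genes was not tested.

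Outside the lists, the largest increases were of genes with different roles. The chemokine Cxcl5 stood at 6.60 against 3.39 and 3.71. Where the dimmer side lay under 4.86, only a minimum fold against that level is given, here at least 3.35-fold. The prostaglandin synthase Ptgs2, or cyclooxygenase 2, stood at 6.45 against 4.20 and 4.10, at least 3.01-fold higher. Rgcc, a regulator of the cell cycle and of the complement response, stood at 8.58 against 4.75 and 5.70, or 10.2-fold. The metalloprotease Mep1b stood at 7.64 against 5.52 and 6.26, and the epidermal secreted protein Krtdap at 6.93 against 5.09 and 5.02. Among the X-linked genes, Gm364 stood at 9.31 against 6.55 and 6.88 and Tex13b at 7.91 against 5.43 and 5.91. Gm21283 stood at 8.65 against 6.39 and 7.40, with a gap of 1.01. In the other genes named here replicates 2 and 3 were within 1 of each other, and in all of them replicate 1 lay above both.

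In the other direction, replicate 1 had far less RNA of transcription factors that are switched on within minutes by growth factors and ERK. Egr1, a zinc finger factor of this kind, stood at 6.28 in replicate 1 and at 11.96 and 12.81 in replicates 2 and 3. The 69-fold difference (log2 -6.11, gap 0.85) was the largest of all genes in either direction. Fos, a subunit of the AP-1 factor, stood at 7.90 against 10.54 and 10.67, or 6.49-fold lower. Its partner Jun stood at 6.89 against 8.87 and 8.00, and Egr2 at 4.53 against 6.44 and 5.58, at least 2.22-fold lower. Of 28 measured ERK phosphatases, feedback inhibitors and targets, 4 were lower (these 4 genes; 14.3%, against 0.709% of all genes) and 1 was higher (against 0.511%), with a median of -0.25. The higher gene was Ier3, an early response gene linked to survival, with 9.41 against 7.83 and 8.17. With no haploid array in the comparison, the data give no reference for which level is usual: Egr1 was low in 1 culture and high in 2.

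Other genes of the same list differed less. The ERK phosphatase Dusp6 stood at 8.16 against 8.68 and 8.66, the inhibitor Spry2 at 9.31 against 9.42 and 9.42, and Spry4 at 6.64 against 6.53 and 6.87. The ERK-dependent factor Etv5 stood at 11.91 against 12.35 and 12.38, and Etv4 at 8.50 against 7.42 and 8.08. Egr3, a relative of Egr1, stood at 7.94 against 7.41 and 7.69. The early gene Ier2 stood at 11.35 against 12.01 and 12.27. Rhob, a small GTPase with early-response kinetics that is outside this list, was 4.80-fold lower, with 7.15 against 9.68 and 9.14. The low values in replicate 1 thus held for some early genes and not for others.

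The promoter of Egr2 is shown for its CArG box, which is the site of the serum response factor at many early genes; this set was looked at after the values were seen. Of the 5 genes of the ERK list past 2-fold, 4 lower and Ier3 higher, 4 had a RefSeq promoter. The promoter of Egr1 could not be shown. A CArG box lay in the 250 bases before the start in 1 of these 4 promoters, against 1.62% of all genes. The sequence is the plus strand of chr10:67537316-67537565 (GRCm38.p6), the first by position of the listed starts of Egr2 with a match, and capitals mark the match, which begins 72 bases before that start.
Egr2: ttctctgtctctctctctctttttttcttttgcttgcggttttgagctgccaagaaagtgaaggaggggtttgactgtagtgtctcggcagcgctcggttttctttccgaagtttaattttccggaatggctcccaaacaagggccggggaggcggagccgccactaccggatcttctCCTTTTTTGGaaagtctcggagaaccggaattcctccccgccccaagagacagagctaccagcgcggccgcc

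Signalling feedback genes of other pathways were lower in part. Lefty1, a secreted inhibitor of Nodal, stood at 9.78 against 11.96 and 11.53, or 3.89-fold lower. Id3, a target of Bmp signals that blocks differentiation factors, stood at 7.51 against 9.51 and 9.19, or 3.57-fold lower. These were the 2 lower genes among 27 of the Nodal, Bmp and Smad list (7.41%, against 0.709% of all genes), none of which was higher by 2-fold, and the median was -0.05. Nodal itself stood at 10.33 against 10.82 and 10.80, Lefty2 at 9.11 against 9.74 and 9.83, and Bmp4 at 8.73 against 9.53 and 9.78. Of the related Id genes, Id2 differed by -0.54 (gap 0.14) and Id4 by -0.77 (gap 0.09), while Id1, at 8.47 against 7.62 and 8.26, differed by less than its gap. Of 20 Wnt and beta-catenin targets 3 were lower (15%, against 0.709% of all genes), none higher, and the median was -0.01. They were Ccnd1, cyclin D1 (9.54 against 10.74 and 10.67), Notum, a secreted Wnt inhibitor (8.54 against 9.71 and 9.68), and the receptor Tnfrsf19 (6.13 against 7.39 and 6.98). Other probe sets gave as little as -0.05 for Tnfrsf19 and -0.90 for Ccnd1, while Notum had 1 probe set. Axin2, the common feedback target of beta-catenin, stood at 8.32 against 8.93 and 9.03.

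No core or naive pluripotency gene differed by 2-fold, and most were slightly lower in replicate 1. None of 12 core factors and none of 27 naive genes differed by 2-fold in either direction, against 1.22% of all genes. At that share lists of this size would hold few or none. The medians of the core and naive lists were -0.13 and -0.24. Among the core factors 8 of 12 were below both other cultures (66.7%, against 33.9% of all genes) and 4 above both, and 7 were lower by more than the gap. The general factors Pou5f1 (0.04) and Sox2 (0.13) differed by 0.13 or less. The lowest of the core list was Dppa2, at 10.75 against 11.33 and 11.50. The 12 genes include Tcf3 (0.07), on chromosome 10. The ES cell factor often called Tcf3 is a different gene, Tcf7l1, so Tcf3 is counted here by its symbol only. Zfp281 differed by -0.42, L1td1 by -0.35 and Rif1 by -0.25. Nanog, on chromosome 6, stood at 13.38 against 13.14 and 13.17, and its difference of 0.22 became -0.18 with its chromosome's median subtracted. Dppa3, a maternal factor on the same chromosome, stood at 9.77 against 8.86 and 8.75, the largest positive difference of the naive list at 0.97. The growth factor Gdf3, also on chromosome 6 and in the naive list, stood at 11.56 against 11.65 and 11.56. With the chromosome's median subtracted, Dppa3 differed by 0.56 and Gdf3 by -0.46. Among the naive genes 17 of 27 were below both other cultures (63.0%, against 33.9% of all genes) and 7 above both. Klf2, a Krüppel-like factor of the naive network, stood at 12.14 against 13.06 and 13.05, and Nr0b1 at 10.78 against 11.61 and 11.60. Foxd3 stood at 7.93 against 8.65 and 8.69 and Tbx3 at 10.58 against 11.23 and 11.19. Klf4 (-0.06), Tfcp2l1 (0.00) and Nr5a2 (-0.13) were near 0. Replicates 2 and 3 were within 0.1 of each other for Klf2, Nr0b1, Foxd3 and Tbx3, so the differences, although under 2-fold, were larger than the gap.

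**Figure D5:**
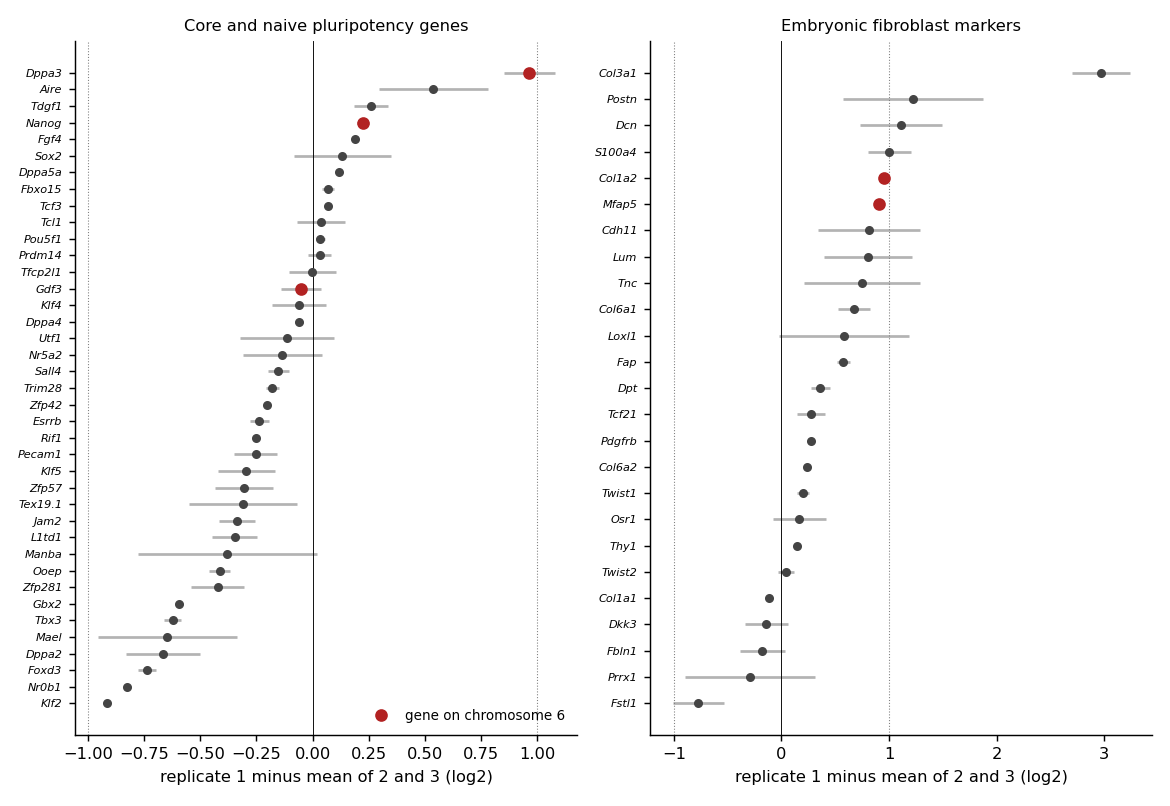
Log2 difference of replicate 1 from the mean of replicates 2 and 3 for core and naive pluripotency genes (left) and fibroblast markers (right); bars extend by the gap between replicates 2 and 3 on each side, dotted lines mark 2-fold, and red points are genes on chromosome 6. No pluripotency gene reaches 2-fold, from Klf2 at -0.92 to Dppa3 at 0.97, while 4 fibroblast markers do. Of all genes 1.22% do.

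Genes of the later epiblast were in most cases lower in replicate 1, most of them by less than 2-fold. Of 24 formative and primed epiblast genes 2 were lower (8.33%, against 0.709% of all genes) and 1 was higher (4.17%, against 0.511%), with a median of -0.29. In this list 16 genes were below both other cultures (66.7%, against 33.9% of all genes). The neural and epiblast factor Zic2 stood at 7.00 against 8.99 and 8.62 (3.48-fold lower), and the DNA methyltransferase Dnmt3b at 9.80 against 10.96 and 10.85 (2.15-fold lower). The homeobox gene Crxos was 2.12-fold higher, with 12.04 against 10.68 and 11.24. The formative markers Fgf5 (5.47, 5.24 and 5.48) and Otx2 (9.34, 8.96 and 9.20) were within 0.4. Of the primitive endoderm (24 genes), neural ectoderm (19), trophoblast (16) and two-cell-embryo (11 measured) markers none reached 2-fold, with medians of 0.05, -0.02, 0.19 and 0.04. Of all genes 1.22% reached it, so lists of this size would hold few or none. The mesendoderm list had 1 of 22 lower (4.55%, against 0.709% of all genes), Lefty1, and a median of 0.04. In the epithelial adhesion list 2 of 26 were lower (7.69%, against 0.709% of all genes), N-cadherin, Cdh2 (6.18 against 7.88 and 7.13), and the splicing factor Esrp1 (6.02 against 7.40 and 6.71).

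Several imprinted genes were lower in replicate 1. Imprinted genes are read from the copy of 1 parent, and ES cell cultures are known to vary in their imprints. Among 23 maternally expressed genes 4 were lower (17.4%, against 0.709% of all genes), 1 was higher (Dcn, also a matrix gene), and the median was -0.15. Grb10, an adaptor that restrains growth, stood at 9.02 against 11.15 and 10.54 (3.54-fold), although another of its probe sets gave 0.11. The cell cycle inhibitor Cdkn1c stood at 7.00 against 8.57 and 8.15, Phlda2 at 10.35 against 11.55 and 11.46, and the noncoding RNA Mirg at 7.63 against 8.99 and 8.64. Its neighbours in the same cluster, Meg3 and Rian, stood at 11.55 against 12.66 and 12.12 and at 11.05 against 11.86 and 11.64, under 2-fold. Of 22 paternally expressed genes 2 were lower (9.09%, against 0.709%), none higher, and the median was 0.02. The growth factor Igf2 stood at 7.40 against 9.46 and 9.04 (3.61-fold, another probe set -0.18), and Zdbf2 at 8.43 against 9.90 and 9.62. Mest stood at 11.46 against 11.01 and 10.85 and Peg3 at 9.78 against 9.77 and 9.36. Lower values were thus found on both parental sides, in a minority of each list.

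The Y-linked genes differed among themselves. Eif2s3y, a translation factor subunit, differed by -0.20, with 10.10 and 10.30 in replicates 2 and 3 and replicate 1 below both. Uba1y, a ubiquitin-activating enzyme, stood at 5.53 against 8.05 and 7.65, or 4.99-fold lower, and its probe sets ran from -2.32 to -1.47. Uty, a demethylase relative, stood at 5.03 against 6.10 and 6.03, with another probe set at 0.13. These were the 2 lower genes of 7 measured (28.6%, against 0.709% of all genes). The others were Kdm5d (4.94, 4.89 and 5.23), Usp9y (4.80, 5.27 and 5.29), Zfy2 (5.04, 5.17 and 5.23) and Sry (7.04, 6.90 and 6.51). The X-linked genes above the median level were shifted by -0.06, and all 617 X-linked genes by -0.04. Of 10 genes of the X-inactivation region none reached 2-fold, against 1.22% of all genes, and Xist stood at 7.93 against 8.72 and 8.06.

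Genes of glycolysis and of the hypoxia response were slightly higher in replicate 1 across the list. Of 28 measured genes 26 were above both other cultures, against 43.2% of all genes, 2 were higher by 2-fold (7.14%, against 0.511% of all genes), none was lower, and the median was 0.34, or 0.30 with chromosome medians subtracted. The peptide hormone adrenomedullin, Adm, stood at 7.50 against 6.25 and 6.11, and Ankrd37 at 8.16 against 6.53 and 6.90. Hexokinase 2, Hk2, stood at 12.56 against 11.88 and 11.62 and the glucose transporter Slc2a1 at 13.25 against 12.82 and 12.38. Bnip3, a mitophagy receptor, stood at 11.96 against 11.40 and 10.63. The 3 cultures did not fall into 1 and 2 here: the mean log2 level of the list was 10.94, 10.61 and 10.37, so that replicates 2 and 3 also differed. The pyruvate kinase Pkm was the only gene of the list below both others, at 13.20 against 13.41 and 13.37.

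Of all genes 1.22% were past 2-fold, and the remaining lists had few such genes. None was found among 28 p53 targets, 31 genes of the unfolded protein and integrated stress response, 19 of cholesterol synthesis, 15 heat shock and metallothionein genes, 17 apoptosis regulators, 18 of the LIF and Stat3 pathway or 23 germ line genes. Their medians lay between -0.05 (heat shock, LIF and Stat3) and 0.21 (cholesterol). Of 29 cell cycle and replication genes 1 was lower (3.45%, against 0.709% of all genes), Ccnd1. Of 28 interferon response genes 1 was higher (3.57%, against 0.511% of all genes), Ifitm3, at 13.02 against 11.79 and 11.92. Of 14 DNA methylation and Tet genes 1 was lower (7.14%, against 0.709% of all genes), Dnmt3b. Outside the lists, the largest decreases included 2 guanylate-binding proteins, Gbp2b (4.46 against 7.81 and 6.47) and Gbp2 (4.64 against 7.28 and 6.02). Their gaps were 1.34 and 1.26. They are close relatives, and whether their probe sets detect each other's RNA was not tested. The others were the amino acid transporter Slc6a15 (6.82 against 8.74 and 9.13), the transcription factor Sox11 (6.10 against 8.40 and 7.93), Tasor2, Lpar4, Gm13238 and the growth cone protein Gap43 (6.19 against 8.54 and 7.62). Titin, Ttn, stood at 5.04 against 7.56 and 7.40 in its brightest probe set, while another gave a difference of 0.29. The probe sets of Sox11 ran from -2.07 to -0.38, of Tasor2 from -2.06 to 0.02 and of Lpar4 from -2.06 to -0.70. In replicate 1 Gbp2b, Gbp2 and Lpar4 lay under 4.86, so the size of their decrease is uncertain.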

How the data were processed

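The authors summarised each probe set to a log2 value with RMA, per the submitters' processing notes; software and settings are not stated there, and these deposited values were used unchanged. RMA sets all arrays to a common distribution, so differences are relative to the bulk of genes, and it compresses those of dim genes. Of 45101 probe sets, the 34945 with a single symbol in GEO's platform annotation were used, 64 controls were left out, and 34741 matched the RefSeq gene table of GRCm38.p6, which gave chromosome and gene order. A gene is its probe set with the highest mean over the 6 arrays. Differences were computed in Python 3.11.15 with pandas 2.3.3, and the steps were tested on simulated data.

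The split of the diploid cultures, the members and the gene lists were chosen with earlier results of these data known. Named were the 15 largest called differences in each direction, up to 4 called members of each list or its 2 brightest, all core pluripotency and Y-linked genes, and 6 each of the largest and brightest on chromosome 6. Other genes named, as list members or otherwise, were chosen after their values were seen. Alternatives covered normalization, probe sets, thresholds, chromosome medians and leaving out each culture.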

Additional observations from a re-analysis of the deposited data

How the results depend on the processing

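No paired analysis was possible because the replicate numbers of the diploid cultures were compared with each other and no second group entered. Without replicate 2 the counts of higher and lower genes were 108 and 115, and without replicate 3 they were 105 and 165, with no condition on the gap in either case. Among genes above the median level 41 were higher and 86 lower, and at 1.5-fold 545 were higher and 495 lower. The chromosome 6 shift was 0.15 over all genes, 0.36 without the genes past 2-fold, 0.33 with probe sets averaged per gene and 0.35 without probe sets that may match several transcripts, and without replicate 2 or 3 it lay between 0.38 and 0.40. In the last of these probe set choices Ttn turned to 0.00911. Of 61 named genes past 2-fold, 61 kept their direction with chromosome medians subtracted, after quantile normalization, with probe sets averaged, and without replicate 2 or 3; without probe sets that may match several transcripts, 55 of 56 with a value did. With probe sets averaged 50 stayed past 2-fold. Against replicate 3 alone Postn, Ccn1, Cdh2, Crxos, Esrp1 and Tnfrsf19 were under 2-fold, and against replicate 2 alone Dcn, Fbln2 and S100a4 were. Col3a1, Fbln2 and Sox11 were under 2-fold without probe sets that may match several transcripts. With 1 array against 2, the number of arrays limits every value.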

Other observations

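The genes named here lie outside the lists and were chosen for their differences, after their values were seen, so they stand for no group. The glycogen-targeting phosphatase subunit Ppp1r3b stood at 8.20 in replicate 1 against 6.80 and 6.80, Ppp1r3c at 7.09 against 5.71 and 5.64, and Ppp1r3g at 5.27 against 4.32 and 4.13. The glycogen phosphorylase Pygl stood at 7.35 against 6.33 and 6.06. Txnip, a glucose-induced inhibitor of thioredoxin, stood at 12.28 against 10.80 and 11.03, and Pdk4, a kinase that restrains pyruvate use and lies on chromosome 6, at 8.60 against 7.54 and 7.44.

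Lower in replicate 1, and chosen in the same way, were the following. The guidance protein Ntn1 stood at 9.93 against 11.64 and 11.77, Crmp1 at 7.94 against 9.71 and 9.78, the neurofilament Nefl at 9.30 against 10.77 and 10.73, and the transcription factor Neurod1 at 5.68 against 7.30 and 7.17. The chemokines Ccl2 (8.00 against 6.79 and 6.63) and Ccl7 (6.17 against 5.10 and 4.95) and the acute phase protein Saa3 (10.08 against 8.83 and 9.04) were higher in replicate 1, beside Cxcl5.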
